A study of Mus musculus with 8 samples.

Results

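The 9 genes described here encode transcription factors that hold hepatocytes in their differentiated state. They are Hnf4a, Nr1h4, Nr5a2, Foxa1, Foxa2, Foxa3, Onecut1, Cebpa and Prox1, taken by gene name from a table of 37583 genes, and all 9 were among the 17362 genes with enough counts to be tested. RNA was sequenced from mouse liver in 8 libraries of 3 groups, to ask what PR-SET7, a histone methyltransferase, does in liver. PR-SET7 (gene Setd8) places a single methyl group on lysine 20 of histone H4, a mark needed for genome stability and chromosome compaction in dividing cells.

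All animals were of the C57BL6/CBA background and 8 months old, and all libraries came from liver. WT denotes untreated wild-type mice (2 libraries). PR-SET7_LOBE denotes the genotype PR-SET7_LX_ALB_CRE (4 libraries), in which the gene is inactivated in hepatocytes by a Cre recombinase under the albumin promoter, so that other liver cells keep it. The meaning of LOBE is not given in the labels. DEN_WT denotes wild-type mice (2 libraries) given diethylnitrosamine, a liver carcinogen that hepatocytes activate, by injection into the peritoneum at day 15, at 25 ml per kg of a solution whose concentration is not stated. The labels tell samples of a group apart only by replicate number and not as separate animals, so all p-values here reflect the scatter among these samples, which may be technical.

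As background, hepatocyte identity rests on a small set of factors that bind each other's regulatory regions and many liver genes together. FOXA proteins open chromatin, HNF4A and C/EBPα drive most metabolic and secretory genes, and ONECUT1 and PROX1 act in liver development and in adult metabolism. NR1H4, the bile acid receptor FXR, and NR5A2 control bile acid synthesis.

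The promoters of 4 of the factors are shown as examples, because their sequences differ in composition. Each window runs from 200 to 11 bases before a RefSeq start site on the GRCm38.p6 build, 5′ to 3′ on the strand of the gene. The RefSeq promoter table holds 14 starts for the 9 factors. Capitals mark matches on either strand to TGTTTAC (FOXA), GTTAAT (HNF1), ATTGAT or ATCGAT (ONECUT), TTNNGCAA (C/EBP), AGGTCA (nuclear receptors), CACGTG (the E-box), TATAAA (the TATA box), GGGCGG (the GC box) and CCAAT (the box of that name).
Onecut1, chr9:74861721-74861910, plus strand: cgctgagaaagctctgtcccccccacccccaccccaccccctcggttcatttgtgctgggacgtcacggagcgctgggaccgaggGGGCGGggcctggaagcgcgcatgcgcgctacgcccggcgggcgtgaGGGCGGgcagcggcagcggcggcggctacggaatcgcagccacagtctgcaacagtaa
Foxa1, chr12:57546122-57546311, minus strand: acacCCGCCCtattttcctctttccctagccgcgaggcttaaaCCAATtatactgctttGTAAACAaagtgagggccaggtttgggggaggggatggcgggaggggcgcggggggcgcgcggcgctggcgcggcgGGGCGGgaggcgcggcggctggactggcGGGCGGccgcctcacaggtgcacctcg
Hnf4a, downstream start, chr2:163546955-163547144, plus strand: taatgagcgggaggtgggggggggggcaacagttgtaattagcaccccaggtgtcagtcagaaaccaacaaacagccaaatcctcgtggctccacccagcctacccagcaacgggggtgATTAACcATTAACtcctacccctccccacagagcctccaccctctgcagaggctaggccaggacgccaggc
Nr1h4, chr10:89506669-89506858, minus strand: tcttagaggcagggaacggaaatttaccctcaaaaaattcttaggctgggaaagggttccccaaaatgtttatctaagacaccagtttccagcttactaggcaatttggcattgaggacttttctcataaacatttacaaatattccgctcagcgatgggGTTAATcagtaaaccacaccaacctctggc

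The Onecut1 window held 22 CpG dinucleotides, with a GC content of 71.6%, and 2 GC boxes. The Foxa1 window held 21 CpG, 3 GC boxes, a CCAAT box and a FOXA match that lay 141 to 135 bases before the start. The median over 32502 promoter windows of this length was 4 CpG and a GC content of 53.2%. Hnf4a had 2 adjacent HNF1 matches 81 to 76 and 74 to 69 bases before its downstream start, in a window with 4 CpG, and Nr1h4 had a single HNF1 match in a window with 3 CpG and a GC content of 42.1%. An HNF1 match stood in 3 of the 14 windows of the factors and in 4.92% of all windows, a FOXA match in 1 of 14 and 2.40%, and a GC box in 7 of 14 and 29.7%. These are matches of letters only.

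Levels are given as CPM, read counts scaled to the library sizes after TMM normalisation. Totals ran from 7305595 to 16108081 counts per library. The summed level of 9 hepatocyte markers was 50029 to 177714 CPM over the 8 libraries, as the liver label asks, and none of those genes was at 0. Setd8 stood at 51.9 and 56.0 CPM in WT, at 62.6, 57.4, 47.9 and 46.5 CPM in PR-SET7_LOBE replicates 1 to 4, and at 40.0 and 42.8 CPM in DEN_WT. The count of the whole gene cannot check the genotype, since the sources used here do not say which exons are removed and other liver cells keep the gene. PR-SET7_LOBE replicate 1 stood apart: over all genes its log2 CPM correlated more with the WT libraries (mean r = 0.923) than with the other libraries of its group (mean r = 0.890). Its deviations from the mean of all libraries also followed the GC content of the genes (r across genes = 0.629, against -0.296 to -0.0442 in replicates 2 to 4). The groups differed in this too, with r of 0.313 and 0.203 in WT and -0.294 and -0.260 in DEN_WT. For the 9 factors, results are given with and without PR-SET7_LOBE replicate 1, or with a GC correction, where this matters. Other single genes are given only from all 8 libraries without a GC correction.

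Per kilobase of exon, Cebpa and Hnf4a were the most abundant of the 9 factors in WT liver, at means of 429 and 211 CPM per kb. Nr1h4 followed at 43.9, Foxa3 at 29.1 and Foxa2 at 20.7 CPM per kb. Prox1, Onecut1, Foxa1 and Nr5a2 lay between 7.17 and 4.52 CPM per kb, and each neighbouring pair in this order overlapped between the WT libraries. In PR-SET7_LOBE the order began with the same 4 genes, at means of 249, 138, 32.2 and 28.4 CPM per kb for Cebpa, Hnf4a, Foxa3 and Nr1h4, which puts Foxa3 above Nr1h4, and Onecut1 was last at 1.60 CPM per kb. In DEN_WT it was Cebpa at 179 and Hnf4a at 148, with Onecut1 again last at 1.12 CPM per kb.

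**Figure D1:**
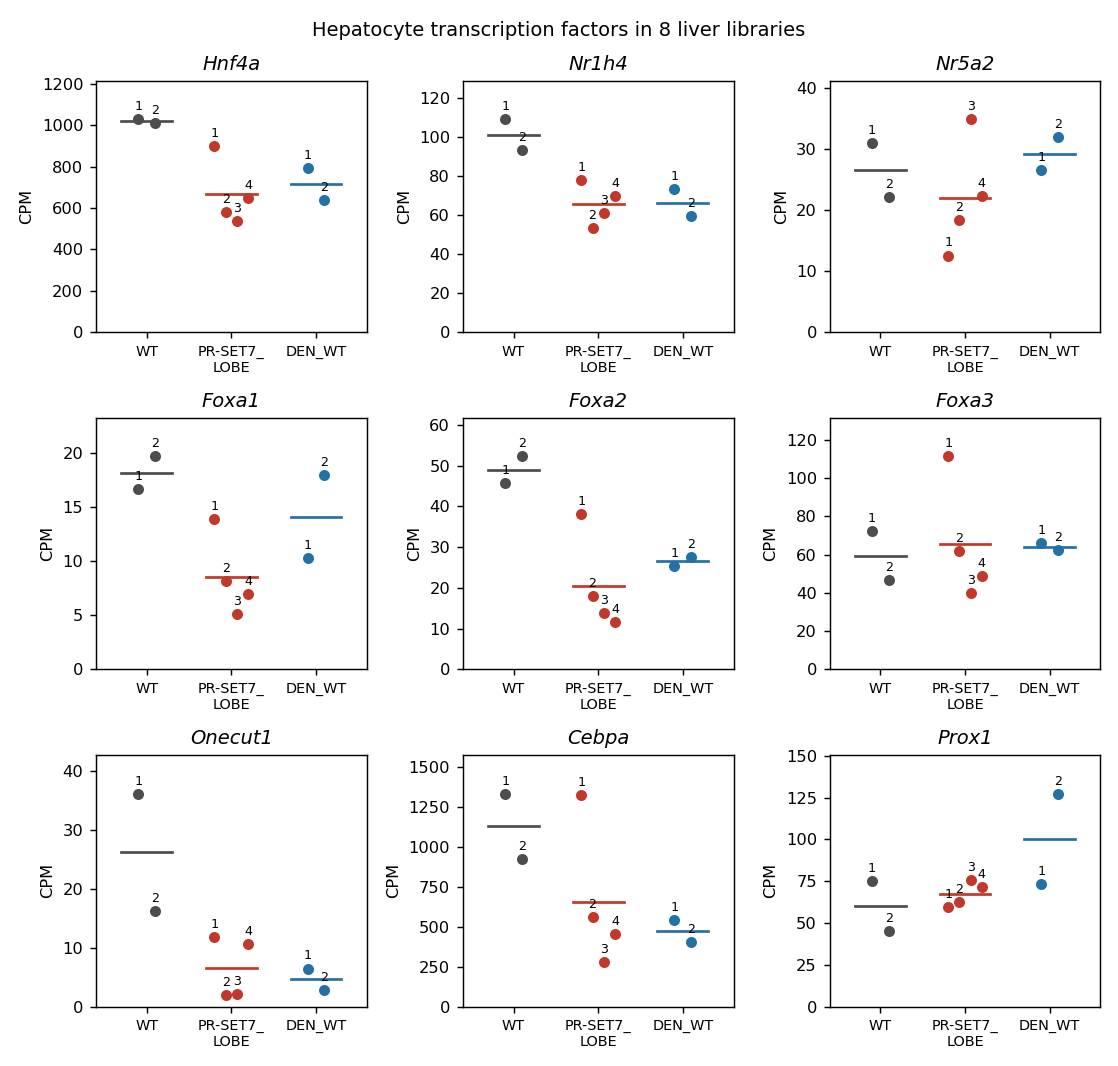
Level of each of the 9 factors in CPM (y axis, from 0) in the 2 WT, 4 PR-SET7_LOBE and 2 DEN_WT libraries. Points are libraries with their replicate number and bars are group means. Hnf4a, Foxa2, Onecut1 and Nr1h4 have all PR-SET7_LOBE and DEN_WT points below both WT points, and PR-SET7_LOBE replicate 1 is the highest of its group for Hnf4a, Foxa1, Foxa2, Foxa3, Onecut1, Cebpa and Nr1h4.

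The question of the comparison of PR-SET7_LOBE with WT is what loss of PR-SET7 in hepatocytes does to these genes. None of the 9 factors passed edgeR's quasi-likelihood test at an adjusted p under 0.05, where 0.248% of all genes tested did. At an unadjusted p under 0.05 there were 3 of the 9 (Foxa1, Foxa2 and Onecut1), against 17.2% of all genes. DESeq2 called 0 and limma voom with quality weights 1 of the 9 (Foxa2). Over all 17362 genes tested they called 890 and 386. The difference was below 0 for 7 of 9 factors, with a median log2 fold change of -0.63 beside a median of 0.11 over all genes. For 5 factors (Hnf4a, Foxa1, Foxa2, Onecut1 and Nr1h4) all 4 PR-SET7_LOBE libraries lay below both WT libraries, a pattern found in 10.5% of all genes tested.

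Without PR-SET7_LOBE replicate 1, 3 factors passed and were lower: Foxa2 (log2 fold change -1.75 ± 0.27 SE, adjusted p = 0.0174), Foxa1 (-1.43 ± 0.35, adjusted p = 0.0332) and Cebpa (-1.38 ± 0.39, adjusted p = 0.0484). With the GC correction as well, a combination chosen after seeing the data, Foxa2 passed (-1.34, adjusted p = 0.0327), while Foxa1 (-1.15, adjusted p = 0.0734) and Cebpa (-0.80, adjusted p = 0.145) did not. Leaving out replicate 1 alone took the count over all genes from 43 of 17362 to 2392 of 17148, and with the GC correction as well it was 927 of 17148. In bulk liver, fewer cells of a type and less RNA per cell cannot be told apart. Among markers of other cells, the summed level of 8 cholangiocyte markers was 38.4 to 67.5 CPM in WT, 118 to 296 in PR-SET7_LOBE and 431 to 734 in DEN_WT. In that list Spp1, osteopontin, rose in PR-SET7_LOBE (adjusted p = 0.0411) and in DEN_WT (adjusted p = 0.00215), and the other 7 did not pass in either. Most of the sum in those 2 groups was Spp1, at 68.8 to 249 CPM in PR-SET7_LOBE and 383 and 679 CPM in DEN_WT. In WT Spp1 stood at 15.5 and 9.04 CPM. Gene by gene, 5 of the 8 markers were above 0 in PR-SET7_LOBE (median log2 fold change 1.60) and 6 of 8 in DEN_WT (median 0.78). The summed level of 8 stellate cell markers was 107 to 129 CPM in WT, 153 to 246 in PR-SET7_LOBE and 197 to 394 in DEN_WT, and that of 4 B cell markers was 1.15 to 2.49, 5.92 to 8.84 and 0.972 to 2.74 CPM. For 6 T and NK cell markers it was 14.4 to 15.9 CPM in WT, 10.1 to 16.2 in PR-SET7_LOBE and 2.04 to 2.21 in DEN_WT, but most of the WT sum was 1 gene, Cd3d, at 14.0 and 13.6 CPM, which fell in DEN_WT to 0.354 and 0.265 CPM (adjusted p = 0.00237). Gene by gene, 4 of the 5 T and NK markers tested were above 0 in PR-SET7_LOBE (median log2 fold change 2.04) and 3 of 5 in DEN_WT (median 0.16). Those 4 were near 0 in WT, at 0.957 CPM or less, so their fold changes are uncertain. In PR-SET7_LOBE Cd3d was below 0 (-0.85), and none of the 5 passed. The hepatocyte markers summed to 86837 to 105377 CPM in WT, 50029 to 173687 in PR-SET7_LOBE and 148232 to 177714 in DEN_WT, with Alb alone at 9678 to 105982 CPM over the 8 libraries. Gene by gene, 7 of the 9 hepatocyte markers were below 0 in PR-SET7_LOBE (median log2 fold change -0.56) and 4 of 9 in DEN_WT (median 0.81), and none passed in either. The sums of macrophage, endothelial and neutrophil markers overlapped between WT and PR-SET7_LOBE. The part of the cell makeup in the levels of the 9 factors was not tested.

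The comparison of DEN_WT with WT, which uses the same 2 WT libraries, asks about the late state of liver after the carcinogen. The DEN_WT samples carry record numbers far from those of the WT and PR-SET7_LOBE samples. Whether all groups were prepared together is not stated in the sources used here. An effect of the carcinogen cannot be told apart from one of a separate preparation, also in PR-SET7_LOBE against DEN_WT. Again 0 of the 9 factors passed with edgeR, where 9.73% of all genes tested did, and 1 factor (Onecut1) had an unadjusted p under 0.05, against 28.9% of all genes. DESeq2 called 1 (Onecut1) and limma voom 3 (Foxa2, Cebpa and Onecut1), beside 3144 and 6335 of all 17362 genes tested. The difference was below 0 for 6 of 9 factors, with a median of -0.51 beside 0.06 over all genes. In 5 factors (Hnf4a, Foxa2, Cebpa, Onecut1 and Nr1h4) both DEN_WT libraries lay below both WT libraries, as they did in 33.4% of all genes tested.

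PR-SET7_LOBE was also compared with DEN_WT, which is the test of whether the 2 effects against WT differ. None of the 9 passed with edgeR, where 11.1% of all genes tested did, and none had an unadjusted p under 0.05, against 25.8% of all genes. DESeq2 called 0 and limma voom 1 (Foxa2), beside 2842 and 5188 of all 17362 genes tested. No factor had groups that did not overlap, which 40.6% of all genes did.

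**Figure D2:**
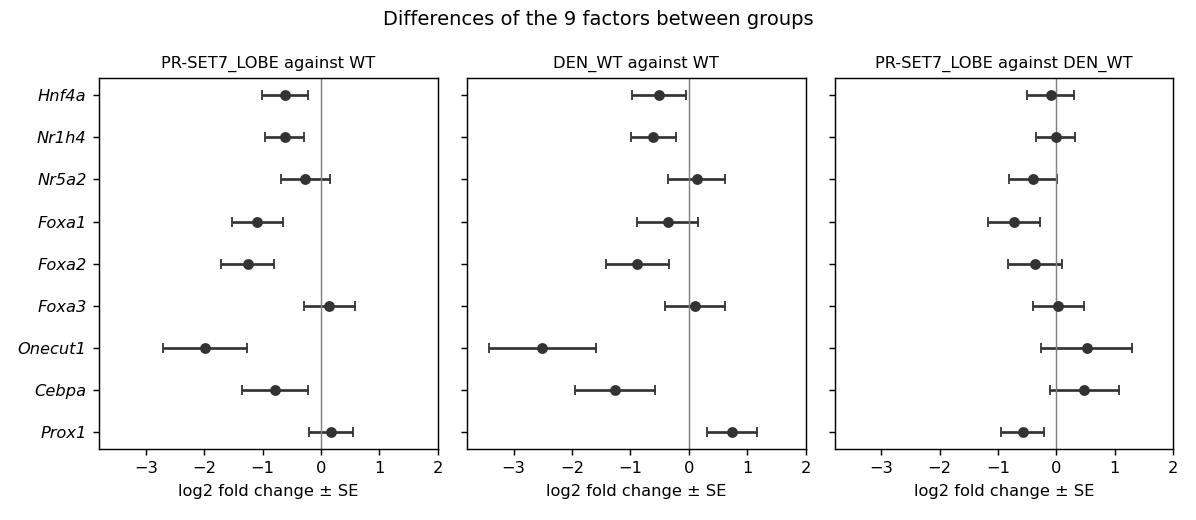
Log2 fold change (x axis) of each factor in the 3 comparisons, with bars of 1 SE from the fit over all 8 libraries. Onecut1 lies farthest from 0 in both comparisons with WT, at -1.99 and -2.51, and no factor passed the test in any of the 3 panels.

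Hnf4a encodes the nuclear receptor HNF4A, a central activator of hepatocyte genes. It stood at 1028 and 1011 CPM in WT, at 897, 580, 538 and 648 CPM in PR-SET7_LOBE replicates 1 to 4, and at 792 and 638 CPM in DEN_WT. All 6 other libraries were below both WT libraries, and PR-SET7_LOBE replicate 1 was the nearest to them. The log2 fold change against WT was -0.61 ± 0.40 (SE, adjusted p = 0.426) in PR-SET7_LOBE and -0.51 ± 0.47 (adjusted p = 0.490) in DEN_WT. With the GC correction the DEN_WT value was -0.11 ± 0.36, and DEN_WT then overlapped WT, with log2 CPM of 9.89 and 9.60 against 9.83 and 9.89. The PR-SET7_LOBE libraries, at 9.44 or less, stayed below both groups. The gene spans chr2:163332544-163398646 on the plus strand of mm9. It overlaps an antisense gene, 0610008F07Rik, with 258 counts over the 8 libraries, against 66388 for Hnf4a, and the strand setting of the counting is not given in the sources used here.

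Nr1h4 encodes FXR, which senses bile acids and limits their synthesis (chr10:88916979-88996330, minus strand). Its level was 109 and 93.2 CPM in WT, 77.8, 53.3, 60.9 and 69.9 CPM in PR-SET7_LOBE, and 73.1 and 59.3 CPM in the DEN_WT pair. The 4 PR-SET7_LOBE values and both DEN_WT values lay below WT, and those 2 groups overlapped. The log2 fold change against WT was -0.63 ± 0.33 (adjusted p = 0.338) in PR-SET7_LOBE and -0.61 ± 0.39 (adjusted p = 0.315) in DEN_WT. On the GC-corrected scale PR-SET7_LOBE replicate 1, at a log2 CPM of 6.80, lay above WT replicate 2 at 6.73, and neither difference passed, at -0.77 (adjusted p = 0.231) in PR-SET7_LOBE and -0.97 (adjusted p = 0.158) in DEN_WT. With that correction and without PR-SET7_LOBE replicate 1, a combination chosen after seeing the data, both passed, at -1.10 (adjusted p = 0.0414) and -0.99 (adjusted p = 0.0422). Over all 17148 genes that fit called 927 in PR-SET7_LOBE and 2602 in DEN_WT against WT.

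Nr5a2 encodes LRH-1, a receptor that drives bile acid and cholesterol genes (chr1:138740161-138857004, minus strand). It stood at 31.1 and 22.2 CPM in WT, at 12.6, 18.5, 34.9 and 22.4 CPM in PR-SET7_LOBE, and at 26.6 and 32.0 CPM in the DEN_WT pair. The PR-SET7_LOBE libraries held both the lowest and the highest value of all 8. Against WT it differed by a log2 fold change of -0.27 ± 0.42 (adjusted p = 0.750) in PR-SET7_LOBE and 0.13 ± 0.49 (adjusted p = 0.877) in DEN_WT, and the latter turned to -0.088 with the GC correction. Unlike Hnf4a and Nr1h4, Nr5a2 was lowest in PR-SET7_LOBE replicate 1.

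The FOXA family binds closed chromatin at liver enhancers, and its members overlap in function. Foxa2 (chr2:147868613-147872705, minus strand) stood at 45.7 and 52.3 CPM in WT, at 38.2, 18.1, 13.9 and 11.7 CPM in PR-SET7_LOBE, and at 25.4 and 27.6 CPM in the DEN_WT pair. All 6 other libraries were below WT, and the DEN_WT pair lay within the PR-SET7_LOBE range, above replicates 2 to 4. Relative to WT, the log2 fold change of Foxa2 was -1.26 ± 0.45 (adjusted p = 0.219 with edgeR) in PR-SET7_LOBE and -0.88 ± 0.54 (adjusted p = 0.299) in DEN_WT. It passed in PR-SET7_LOBE against WT in 3 of 20 alternative fits. These were limma voom, the fit without PR-SET7_LOBE replicate 1, and that fit with the GC correction. They called 386 of 17362, 2392 of 17148 and 927 of 17148 genes, against 43 of 17362 with edgeR on all 8 libraries.

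Foxa2 has a GC content of 58.4%, above that of 89.4% of the genes tested, so the GC correction moves its values. On that scale log2 CPM was 5.14 and 5.63 in the WT libraries, 4.44, 4.22, 4.14 and 3.85 in the PR-SET7_LOBE libraries, and 5.02 and 5.17 after DEN. The 4 PR-SET7_LOBE values then drew together, below all DEN_WT and WT values, and DEN_WT overlapped WT. With this correction PR-SET7_LOBE was lower than DEN_WT (log2 fold change -0.92 ± 0.27, adjusted p = 0.0460), against WT it was -1.24 ± 0.27 (adjusted p = 0.0604), and DEN_WT against WT shrank to -0.32 ± 0.32 (adjusted p = 0.568). In PR-SET7_LOBE against DEN_WT this fit called 2490 of 17362 genes.

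Foxa1 (chr12:58641618-58647108, minus strand) stood at 16.7 and 19.6 CPM in WT, at 13.9, 8.13, 5.11 and 6.92 CPM in PR-SET7_LOBE, and at 10.3 and 17.9 CPM in the DEN_WT pair. The PR-SET7_LOBE libraries lay below both WT libraries, while DEN_WT replicate 2 lay between them. For Foxa1 the log2 fold change against WT was -1.09 ± 0.44 (adjusted p = 0.256 with edgeR) in PR-SET7_LOBE and -0.36 ± 0.53 (adjusted p = 0.673) in DEN_WT. With the GC correction the latter turned to 0.089, and PR-SET7_LOBE was lower than DEN_WT by edgeR (-1.13 ± 0.33, adjusted p = 0.0445, beside 2490 of 17362 genes called). These values rest on 55 to 213 counts per library.

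Foxa3 (chr7:19598631-19608887, minus strand), the most abundant FOXA gene per kb in the mean of each group, stood at 72.2 and 46.6 CPM in WT, at 111, 62.0, 40.0 and 49.0 CPM in PR-SET7_LOBE, and at 65.8 and 62.3 CPM in the DEN_WT pair. The PR-SET7_LOBE libraries enclosed all others, with replicate 1 the highest of the 8. Its log2 fold change against WT was 0.14 ± 0.45 (adjusted p = 0.885) in PR-SET7_LOBE, which turned to -0.23 without replicate 1, and 0.11 ± 0.51 (adjusted p = 0.906) in DEN_WT.

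Within each library the balance of the FOXA genes can be read without scaling. The ratio of Foxa3 counts to Foxa2 counts was 1.58 and 0.891 in the WT libraries, 2.91, 3.43, 2.87 and 4.20 in PR-SET7_LOBE replicates 1 to 4, and 2.59 and 2.25 in the DEN_WT pair. All 6 other libraries lay above WT, and the PR-SET7_LOBE libraries lay above DEN_WT, replicate 1 included. Per kb, Foxa3 made up 59.3% and 45.0% of the summed FOXA level in WT, 72.6% to 77.5% in PR-SET7_LOBE, and 70.0% and 64.2% in DEN_WT. This ratio was chosen after its values were seen and is given without a test. Between the transcripts of Foxa1 and Foxa2 there were similar stretches of 188 bases at 91.0% identity and of 347 bases at 88.8%. Whether reads from such stretches were assigned to the wrong gene was not tested.

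**Figure D3:**
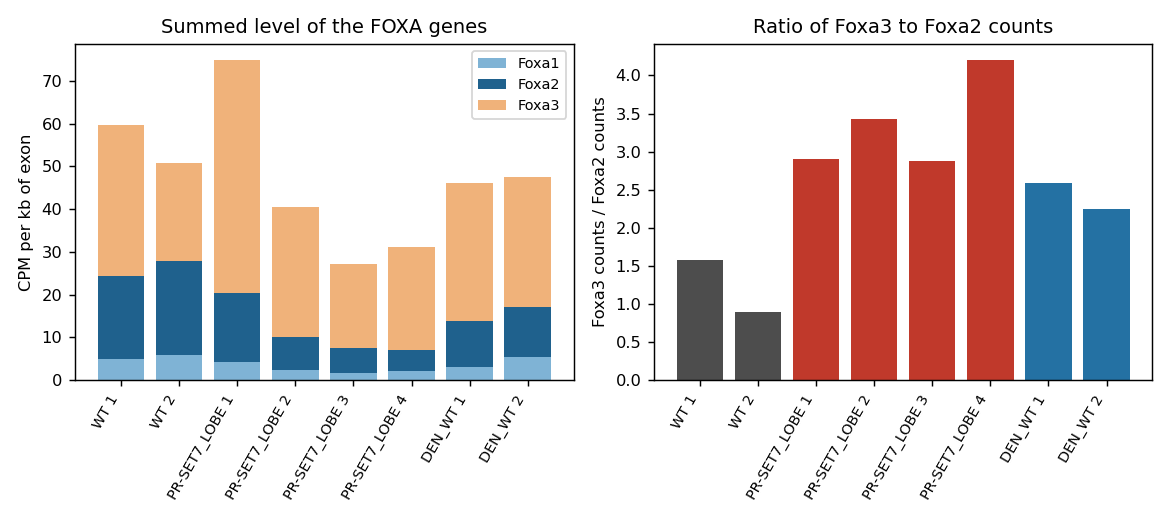
Left, level of Foxa1, Foxa2 and Foxa3 in CPM per kb of exon, stacked, in each of the 8 libraries (y axis from 0). Right, the ratio of Foxa3 to Foxa2 counts in each library (y axis from 0). The ratio is 0.891 to 1.58 in WT, 2.25 to 2.59 in DEN_WT and 2.87 to 4.20 in PR-SET7_LOBE.

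Onecut1 encodes HNF6, a factor of the developing liver and bile ducts that remains active in adult hepatocytes (chr9:74709728-74739282, plus strand). It stood at 36.2 and 16.2 CPM in WT, at 11.7, 1.91, 2.13 and 10.6 CPM in PR-SET7_LOBE, and at 6.46 and 2.74 CPM in the DEN_WT pair. All 6 other libraries lay below both WT libraries, and the WT libraries themselves were far apart. In counts, WT held 378 and 176, PR-SET7_LOBE 125, 20, 23 and 116, and DEN_WT 73 and 31. PR-SET7_LOBE replicates 1 and 4 were above both DEN_WT libraries, and replicates 2 and 3 below them.

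The log2 fold change of Onecut1 was -1.99 ± 0.72 (adjusted p = 0.220 with edgeR) in PR-SET7_LOBE, or 3.97-fold lower. In DEN_WT it was -2.51 ± 0.91 (adjusted p = 0.103), or 5.68-fold lower. Single libraries moved both values: PR-SET7_LOBE against WT ran from -2.42 without PR-SET7_LOBE replicate 1 to -1.31 without WT replicate 1, and DEN_WT against WT from -3.23 without DEN_WT replicate 1 to -1.80 without WT replicate 1. It was the factor with the widest spread, 18.9 times between its highest and lowest library. The DEN_WT difference passed in 5 of 20 alternative fits, among them DESeq2 (adjusted p = 0.0369) and limma voom (adjusted p = 0.00711). Those fits also called more genes over all, 3144 with DESeq2 and 6335 with limma voom, against 1689 with edgeR on all 8 libraries. A gene model on the same strand, RP23-342N19.2, covers the whole of Onecut1 with 0 counts. The longest Onecut1 transcript shares 2179 bases at 99.9% identity with a transcript of the predicted gene Gm20649. How reads were assigned between such models is not given in the sources used here, so the level of Onecut1 is uncertain.

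Cebpa encodes C/EBPα, a factor of hepatocyte metabolism that also restrains proliferation (chr7:35904312-35906945, plus strand). It stood at 1335 and 926 CPM in WT, at 1325, 561, 282 and 456 CPM in PR-SET7_LOBE, and at 540 and 404 CPM in the DEN_WT pair. PR-SET7_LOBE replicate 1 lay within the WT range and replicates 2 to 4 below it, as did both DEN_WT libraries. Its log2 fold change against WT was -0.79 ± 0.57 (adjusted p = 0.475) in PR-SET7_LOBE and -1.26 ± 0.68 (adjusted p = 0.245) in DEN_WT.

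Cebpa has the highest GC content of the 9, 61.2%, above that of 95.0% of the genes tested. On the GC-corrected scale log2 CPM was 9.87 and 9.75 in the WT libraries, 9.32, 9.14, 8.58 and 9.21 in PR-SET7_LOBE replicates 1 to 4, and 9.47 and 9.09 in the DEN_WT pair. All 6 other libraries then lay below WT, replicate 1 of PR-SET7_LOBE included. The differences on this scale were -0.72 ± 0.33 (adjusted p = 0.241) in PR-SET7_LOBE and -0.52 ± 0.40 (adjusted p = 0.434) in DEN_WT.

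Prox1 encodes a homeobox factor of hepatocytes that is also the defining factor of lymphatic endothelium (chr1:191941917-191994559, minus strand). It stood at 75.2 and 45.1 CPM in WT, at 59.7, 62.5, 75.6 and 71.4 CPM in PR-SET7_LOBE, and at 73.5 and 127 CPM in the DEN_WT pair. The groups overlapped, and DEN_WT replicate 2 was the highest of all. Against WT the log2 fold change of Prox1 was 0.16 ± 0.38 (adjusted p = 0.842) in PR-SET7_LOBE and 0.74 ± 0.43 (adjusted p = 0.280) in DEN_WT. Within PR-SET7_LOBE, Prox1 had the narrowest range of the 9, 1.27 times from lowest to highest. The summed level of 5 lymphatic endothelial markers was 85.5 to 112 CPM in WT, 71.9 to 159 in PR-SET7_LOBE and 75.4 to 95.7 in DEN_WT. Most of each sum was Flt4 (28.1 to 129 CPM) and Reln (19.5 to 59.5 CPM), and no other marker of the list exceeded 4.28 CPM. The sum thus follows these 2 genes and is not read as the amount of lymphatic cells. The part of lymphatic cells in the level of Prox1 was not tested. An antisense gene, Gm17566, overlaps Prox1 and held 425 counts, against 6435 for Prox1.

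**Figure D4:**
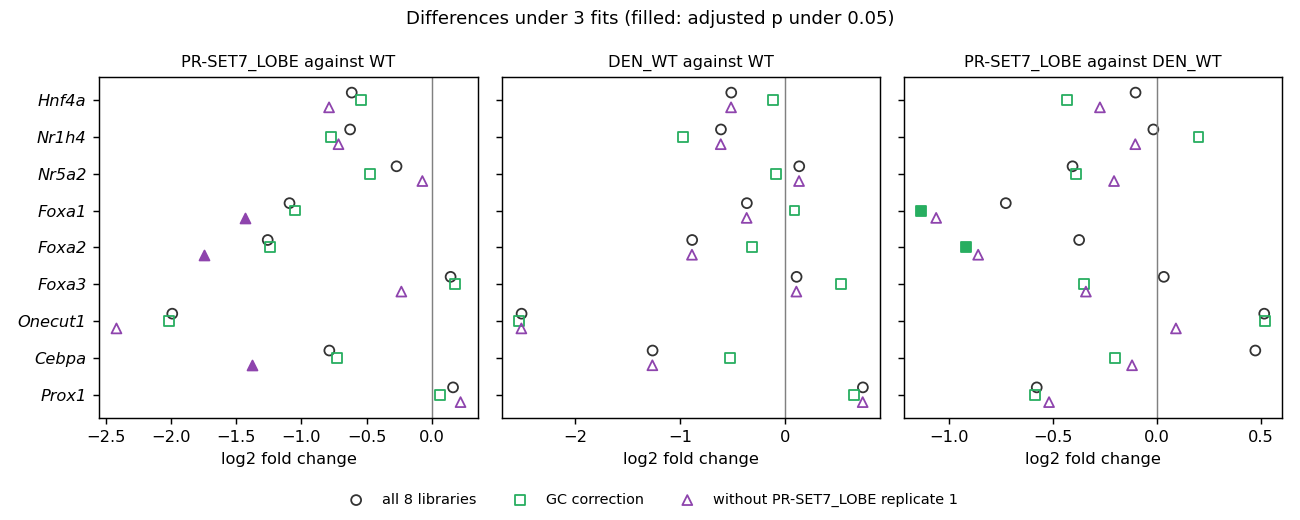
Log2 fold change (x axis) of each factor in the 3 comparisons under 3 fits: all 8 libraries, the GC correction, and without PR-SET7_LOBE replicate 1. Filled symbols have an adjusted p under 0.05. Foxa1, Foxa2 and Cebpa pass against WT without that library, in a fit that called 2392 of 17148 genes in that comparison. Foxa1 and Foxa2 pass against DEN_WT with the GC correction, which called 2490 of 17362 genes.

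As a description over the 8 libraries, which share the differences in depth and GC content given above, log2 CPM of Onecut1 and Nr1h4 had the highest correlation of any pair of factors (Pearson r = 0.96, and 0.93 after GC correction). Hnf4a and Nr1h4 had r = 0.92, which was 0.55 after GC correction. Foxa1 and Foxa2 had r = 0.91 and 0.90, and Hnf4a and Cebpa r = 0.89 and 0.82. Before the correction Foxa3 and Nr5a2 were the most opposed pair, at r = -0.61, which was -0.20 after it. Prox1 had r between -0.48 and 0.02 with all others except Nr5a2, at 0.56. After GC correction these values changed, and r ran from -0.24 with Nr1h4, then the most opposed pair, to 0.62 with Foxa3, and was 0.42 with Nr5a2.

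Among 7979 named genes, those most like each factor over the 8 libraries were found by the same measure, on values without GC correction only. The part of the GC differences between libraries in these matches was not tested. For Hnf4a they were Narf (r = 0.979) and Rxra, the shared partner of many nuclear receptors (r = 0.976). For Foxa2 they were Usp19 (0.990) and Sidt2 (0.986), for Foxa1 Aqp1 (0.992) and Adipor1 (0.982), and for Foxa3 Foxp4 (0.979) and Tjap1 (0.975). For Cebpa they were Sds (0.990), a serine-degrading liver enzyme, and X99384 (0.989), and for Nr1h4 Khnyn (0.984) and Glul, glutamine synthetase (0.977). For Onecut1 they were Gnat1 (0.963) and Gtpbp5 (0.962), for Nr5a2 Dip2c (0.955) and Slc40a1, the iron exporter (0.951), and for Prox1 Spty2d1 (0.932) and Pphln1 (0.916). Over 0.9 there were 483 genes for Cebpa and 3 for Prox1.

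The 9 factors work with other regulators, and 30 of a list of 31 could be tested (Zhx2 had 0 counts in all libraries under either of its 2 entries). They were fitted only with all 8 libraries and no GC correction. In PR-SET7_LOBE against WT none of the 30 passed with edgeR, where 0.248% of all genes tested did. A difference below 0 was found for 26 of the 30, beside 45.1% of all genes. The median log2 fold change was -0.59, beside 0.11 over all genes. Among the smallest adjusted p were those of Nr1i3, the xenobiotic receptor CAR (-1.23 ± 0.33, adjusted p = 0.142), of Ppargc1a (-1.24, adjusted p = 0.197) and of Ppara (-0.97, adjusted p = 0.226). In DEN_WT against WT 3 of the 30 fell and 1 rose, beside 9.73% of all genes tested that passed in either direction. The median was -1.12, beside 0.06 over all genes.

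Nr1i3 stood at 172 and 215 CPM in WT, 66.4, 96.0, 89.4 and 77.8 CPM in PR-SET7_LOBE, and 26.5 and 33.0 CPM in the DEN_WT pair. It fell in DEN_WT by 2.70 on the log2 scale (adjusted p = 0.00358), and it overlaps Tomm40l on the opposite strand, with 549 counts against 8322. Ppargc1a, a coactivator of gluconeogenesis and mitochondrial genes, stood at 40.2 and 61.3 CPM in WT, 31.0, 15.2, 12.3 and 27.2 CPM in PR-SET7_LOBE, and 6.29 and 6.62 CPM in DEN_WT, where it fell by 2.97 (adjusted p = 0.00770). For both genes the PR-SET7_LOBE libraries lay between the WT and DEN_WT libraries.

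Xbp1, a factor of secretion and the unfolded protein response, rose in DEN_WT by 1.57 (adjusted p = 0.0464), from 238 and 277 CPM in WT to 626 and 905 CPM. In PR-SET7_LOBE it stood at 253, 225, 216 and 267 CPM. Against DEN_WT, PR-SET7_LOBE was lower for Xbp1 (-1.67, adjusted p = 0.0120) and higher for Nr1i3 (1.47, adjusted p = 0.0256) and Ppargc1a (1.73, adjusted p = 0.0395), which are 3 of the 30 partner factors, beside 11.1% of all genes tested.

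**Figure D5:**
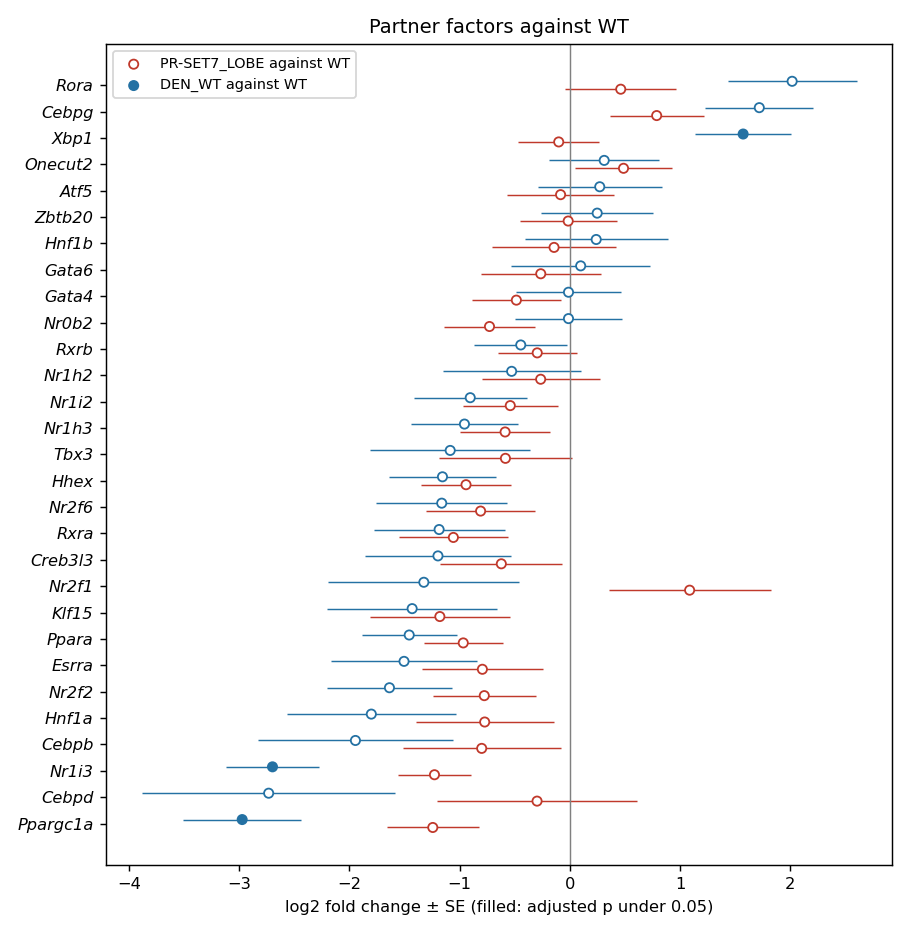
Log2 fold change against WT (x axis) of the partner factors, 1 of the 30 left out, in PR-SET7_LOBE and DEN_WT, ordered by the DEN_WT value, with bars of 1 SE and filled symbols for an adjusted p under 0.05. Xbp1 (higher) and Nr1i3 and Ppargc1a (lower) are filled in DEN_WT, and no factor is filled in PR-SET7_LOBE.

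Genes known as targets of the factors were counted in 7 lists, several of which share members. These lists too were fitted only with all 8 libraries and no GC correction. In PR-SET7_LOBE against WT none of them passed in any list, beside 0.248% of all genes tested. The medians were -0.77 for 15 HNF4A targets, -0.89 for 6 FOXA targets, -1.10 for 8 CEBPA targets, -1.20 for 8 ONECUT1 targets and -0.42 for 10 NR5A2 targets, beside 0.11 over all genes. Genes that NR1H4 activates had a median of 0.02 over the 12 tested, and the 3 it represses a median of -1.26.

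The smallest adjusted p among the targets in PR-SET7_LOBE was that of Slc10a1, the bile acid uptake transporter NTCP, at 332 and 427 CPM in WT, 105, 121, 53.8 and 138 CPM in PR-SET7_LOBE, and 207 and 224 CPM in the DEN_WT pair. All PR-SET7_LOBE libraries lay below all others, at a log2 fold change against WT of -1.86 ± 0.41 (adjusted p = 0.0938). Tat, the tyrosine-degrading enzyme, had 1254 and 1800 CPM in WT and 828, 318, 145 and 361 CPM in PR-SET7_LOBE (-1.89 ± 0.59, adjusted p = 0.176).

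In DEN_WT against WT, where 9.73% of all genes tested passed, 1 of the 15 HNF4A targets fell: Pklr, liver pyruvate kinase, from 325 and 394 CPM to 98.0 and 66.9 CPM (-2.12 ± 0.50, adjusted p = 0.0249). Pklr overlaps Hcn3 on the opposite strand, with 1748 counts over the 8 libraries against 15662. The list had a median of -0.38, beside 0.06 over all genes. Of the 6 FOXA targets Igfbp1, an insulin-regulated binding protein of growth factors, rose from 37.3 and 38.2 CPM to 588 and 1248 CPM (4.60 ± 0.95, adjusted p = 0.0145). In PR-SET7_LOBE Igfbp1 stood at 148, 197, 232 and 21.8 CPM, with replicate 4 below WT. The medians were -0.37 for FOXA, -0.20 for CEBPA, -0.61 for ONECUT1 and -0.20 for NR5A2 targets, and 0.42 and -0.82 for genes that NR1H4 activates and represses, and no gene of these last 5 lists passed. Against DEN_WT, where 11.1% of all genes passed, PR-SET7_LOBE was lower for 1 of the 6 FOXA targets, Igfbp1 (-2.61, adjusted p = 0.0322) and for 1 of the 15 HNF4A targets, Trf, transferrin (-2.03, adjusted p = 0.0372). Trf shares its position and strand with a predicted gene, Gm20425, that holds 0 counts, so its level is uncertain.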

How the data were processed

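Messenger RNA was isolated with oligo(dT) beads, cut with RNaseIII, ligated, amplified and read on an Ion Proton, per the labels' protocols. Reads carry no molecular identifiers. The values the authors deposited are raw read counts per gene in 1 table of all 8 libraries, and each of the 8 single-sample files repeats its column. The mm9 build, TopHat2 2.0.9, Cufflinks and DESeq are named in the submitters' processing notes. Counting tool, annotation and strand setting were not given in the sources used here.

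All 8 libraries entered 1 fit in edgeR 4.0.16 (TMM scaling, filterByExpr by group, group as the only term, robust quasi-likelihood test, Benjamini-Hochberg adjustment over 17362 genes), so that all groups share 1 estimate of the spread. The common biological coefficient of variation was 0.479. CPM values are counts scaled to TMM-adjusted library sizes, and log2 fold changes are given ± SE. Every pair of replicates differed by more than sampling noise (chi-square per degree of freedom of 27.4 or more). The steps were tested on simulated counts. Of genes changed 4-fold, 19 of 94 passed in PR-SET7_LOBE against WT and 7 of 98 in DEN_WT against WT. In PR-SET7_LOBE against DEN_WT 21 of 85 passed. Of genes changed 16-fold, 81 of 94, 72 of 91 and 81 of 91 passed. A factor that did not pass is therefore not shown to be unchanged.

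Alternatives were RLE and upper-quartile scaling, DESeq2 1.42.0, limma 3.58.1 voom with quality weights, no filter, a strict filter (5 CPM in at least 2 libraries), fits restricted to the groups being compared, a block for the replicate number (with or without a GC correction), a GC correction (lowess, span 0.3, GC content from GENCODE M21 transcripts, known for 96.6% of the genes tested), leaving out the 20 most abundant genes, and leaving out each library. When a library of a group of 2 was left out, the remaining one was assumed to vary like the other groups. The GC correction without PR-SET7_LOBE replicate 1 was chosen after seeing the data. Exon lengths and transcripts for the copy search (blastn 2.17.0, at least 100 bases) are from GENCODE M21, gene coordinates from the deposited table, and promoters from RefSeq (GRCm38.p6).

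The factors, the lists and the alternatives were chosen with earlier results of these data known. Named genes are the 9 factors, Setd8, up to 4 genes of a list with the smallest p in a comparison or any that passed, the 2 genes most like each factor (mean log2 CPM of 3 or more) and genes that overlap a factor. Values of 2 genes of these lists are not reported here.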

Additional observations from a re-analysis of the deposited data

How the results depend on the processing

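Over 20 alternative fits, the direction of the 9 differences was kept in 175 of 180 values for PR-SET7_LOBE against WT, 172 of 180 for DEN_WT against WT and 153 of 180 for PR-SET7_LOBE against DEN_WT. The cause of the changes was not tested. The number of factors that passed was 0 in each comparison and changed as follows. For PR-SET7_LOBE against WT it was 1 with limma voom (Foxa2), 2 with the GC correction without PR-SET7_LOBE replicate 1 (Foxa2 and Nr1h4), and 0 to 3 when each library was left out, 3 being without PR-SET7_LOBE replicate 1. For DEN_WT against WT it was 1 with DESeq2 (Onecut1) and 1 with the GC correction without PR-SET7_LOBE replicate 1 (Nr1h4). It was 3 with limma voom and 3 with only the 2 groups compared (Foxa2, Cebpa and Onecut1 in both). Over all genes, DESeq2 called 3144 of 17362 in this comparison and limma voom 6335. The fit of only the 2 groups called 5643 of 14924, and the GC correction without PR-SET7_LOBE replicate 1 called 2602 of 17148. For PR-SET7_LOBE against DEN_WT it was 1 with limma voom (Foxa2), and 2 (Foxa1 and Foxa2) with the GC correction, with or without that replicate. Over all genes, limma voom called 5188 of 17362 in this comparison, the GC correction 2490 of 17362, and the GC correction without that replicate 2599 of 17148. The count over all genes tested ran from 1 to 2392, from 329 to 6335 and from 454 to 5188 in these comparisons, the lowest for PR-SET7_LOBE against WT being without WT replicate 2. Upper-quartile scaling moved the median over all genes in PR-SET7_LOBE against WT from 0.11 to 0.29, and the share of higher among the genes called from 60.5% to 71.2%.

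With the replicate number as a block, 1 factor passed in DEN_WT against WT (Onecut1, -2.54, adjusted p = 0.00762 with edgeR). With the block and the GC correction 1 passed as well (Onecut1). Over all genes these fits called 3137 and 2754 in that comparison. In the other 2 comparisons 0 passed with the block. The block turned PR-SET7_LOBE against DEN_WT to 0.030 for Hnf4a and 0.038 for Foxa2. Same-numbered libraries deviated together only weakly (r = 0.165 and 0.106 between WT and PR-SET7_LOBE, 0.0599 between WT and DEN_WT, -0.00874 and 0.0200 between PR-SET7_LOBE and DEN_WT), and with 2 pairs the numbers are not taken to pair the samples.

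These differences changed sign. In PR-SET7_LOBE against WT, Foxa3 was -0.22 with limma voom, -0.004429 with the GC correction without PR-SET7_LOBE replicate 1 and -0.23 to 0.49 when each library was left out, and Prox1 was -0.087 to 0.57 when each library was left out. In DEN_WT against WT, Foxa1 was 0.089 with the GC correction, 0.065 with the block as well, 0.082 without PR-SET7_LOBE replicate 1 as well, and -0.80 to 0.0028 when each library was left out. Foxa3 was -0.069 to 0.47 when each library was left out, and Nr5a2 was -0.088, -0.081 and -0.10 with the same 3 GC corrections. In PR-SET7_LOBE against DEN_WT, Foxa3 was -0.024 with RLE scaling and with DESeq2, -0.36 with limma voom, -0.042 with no filter, -0.035 with only the 2 groups, -0.011 with the strict filter, -0.35 with the GC correction, -0.10 with the block as well, -0.53 without PR-SET7_LOBE replicate 1 as well, and -0.34 to 0.18 when each library was left out. Cebpa was -0.16 with limma voom, -0.20, -0.050 and -0.29 with the same 3 GC corrections and -0.12 to 0.67 when each library was left out. Onecut1 was -0.032 with limma voom, -0.030 with the GC correction without that replicate, and -0.000054 to 1.23 when each library was left out. Nr1h4 was 0.083 with upper-quartile scaling, 0.20 with the GC correction, 0.37 with the block as well and -0.19 to 0.11 when each library was left out, and Hnf4a was -0.28 to 0.032 when each library was left out.

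The depth of 20 to 378 counts per library for Onecut1 and 55 to 213 for Foxa1 limits the precision of these genes.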
